A study of Mus musculus with 32 samples.

Results

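Dbp, Tef, Hlf, Nfil3, Bhlhe40, Bhlhe41, Rora and Usp2 are 8 genes through which the circadian clock passes its rhythm on to other genes or is modulated in return. They were chosen by name, and every probe with the gene name of a member that was also in the deposited table was taken. This gave 17 probes for 8 of 8 genes, out of 37306 probes of 24523 genes that passed the detection filter over the whole array set. The genes were picked with earlier results of these data known, so their counts are not independent of the data. The rule for probes used detection, and all 17 were well above background on 32 of 32 arrays. Of these, 3 probes, 1 for Tef and 2 for Rora, were kept only because they passed every spot criterion on at least 6 arrays of 1 group, and both genes also had other probes that passed on at least 26 arrays.

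RNA of interscapular brown adipose tissue, the heat-producing fat depot, was hybridized to 32 single-color mouse arrays, 8 in each of 4 groups of male C57BL6/J mice. Total ChREBP KO mice are Mlxipl-null and lack both isoforms of ChREBP, a glucose-responsive transcription factor, in every tissue. ChREBPβ KO mice carry a germline CRISPR/Cas9 deletion of the exon used only by the short β isoform and keep the α isoform. Each KO group had its own wild-type (WT) group, named here total-line WT and β-line WT. Mice of all 4 groups went without food for 24 hours and then had food and water with 20% glucose for 18 hours, so that no group was unfed or untreated. The age of the mice and the clock time at which tissue was taken are not given in the sources used here. Nor is it given whether the lines were handled on the same day. The paper states a light and dark schedule for its mice and that blood was drawn in the morning, except for tolerance tests. It does not state that tissue was taken at that time. The labels do not state that each array is a separate mouse, so p-values measure the spread between these arrays.

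In the core loop, a heterodimer of CLOCK and BMAL1 (encoded by Arntl) switches on genes with E-box sites, among them the Per and Cry genes whose proteins then switch it off. DBP, TEF and HLF, the PAR bZIP factors, carry the rhythm outward by activating genes with D-box sites, while NFIL3 (E4BP4) binds the same sites as a repressor. BHLHE40 and BHLHE41 (DEC1 and DEC2) repress at E-boxes, RORα activates at ROR elements that the REV-ERB proteins (Nr1d1, Nr1d2) repress, and USP2 is a rhythmic deubiquitinase that stabilizes clock proteins. In brown fat, as in liver, Dbp is among the genes with the widest daily swing.

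RefSeq promoter windows of build GRCm38.p6 were at hand for 7 of 8 genes, with 2 windows for Tef and 1 for each of the other 6. Bhlhe40 has no window in that table. The motifs searched on both strands were the E-box CACGTG, the ROR element TAGGTCA and the D-boxes TTATGTAA and TTACGTAA, which do not overlap in these windows. The E-box was present in both Tef windows and in the Bhlhe41 window, against 7.15% of 32851 promoter windows of the same length genome-wide. The ROR element was present in the Nfil3 window, against 2.61% of all windows. Neither D-box was in any member window, and they were in 0.938% and 0.119% of all windows. The windows of Dbp, Hlf, Usp2 and Rora held none of these motifs. For the 4 windows with a match, the 250 bases before the transcription start are shown 5′ to 3′ on the strand of the gene, with the motif in capitals.
Tef, upstream start, chr15:81802423-81802672, + strand: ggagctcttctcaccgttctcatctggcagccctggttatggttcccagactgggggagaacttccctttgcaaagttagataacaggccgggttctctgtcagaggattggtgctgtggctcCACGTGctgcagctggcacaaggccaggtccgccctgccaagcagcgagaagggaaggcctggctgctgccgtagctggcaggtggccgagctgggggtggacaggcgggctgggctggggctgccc
Tef, downstream start, chr15:81811164-81811413, + strand: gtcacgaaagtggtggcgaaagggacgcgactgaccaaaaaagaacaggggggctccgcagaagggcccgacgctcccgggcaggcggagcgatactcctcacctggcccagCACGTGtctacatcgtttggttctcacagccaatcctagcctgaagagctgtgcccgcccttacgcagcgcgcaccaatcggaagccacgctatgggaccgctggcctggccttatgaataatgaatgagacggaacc
Bhlhe41, chr6:145865421-145865670, - strand: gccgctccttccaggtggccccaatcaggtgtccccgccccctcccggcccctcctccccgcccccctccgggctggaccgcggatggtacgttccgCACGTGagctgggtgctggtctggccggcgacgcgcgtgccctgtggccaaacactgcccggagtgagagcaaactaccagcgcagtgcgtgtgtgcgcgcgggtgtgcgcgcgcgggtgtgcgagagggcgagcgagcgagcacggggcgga
Nfil3, chr13:52981040-52981289, - strand: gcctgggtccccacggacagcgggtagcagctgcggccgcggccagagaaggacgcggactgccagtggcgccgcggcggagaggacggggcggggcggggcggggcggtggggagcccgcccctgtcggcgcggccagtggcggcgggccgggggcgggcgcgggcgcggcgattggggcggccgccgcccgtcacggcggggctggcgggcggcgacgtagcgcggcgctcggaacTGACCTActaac
Counted from the transcription start, the E-box lay at -127 to -122 and -138 to -133 in the Tef windows and at -153 to -148 for Bhlhe41. The capitals of Nfil3, at -12 to -6, are the ROR element read on the opposite strand. These matches are a description of the letters and not evidence of binding.

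On each array, 64.4% to 71.1% of the spots exceeded background clearly, and no spot was saturated. Mlxipl, read by its brightest probe, lay at log2 13.49 to 13.91 in total ChREBP KO and at 15.98 to 16.33 in its WT group, and at 14.68 to 14.99 in ChREBPβ KO and at 16.15 to 16.55 in its WT group, so both deletions matched their labels. A second of its 3 probes also separated each KO group from its WT group, and the third did not. The mean of 7 brown adipose markers was 12.32 to 13.74 over the 32 arrays. Markers of other tissues varied widely. The mean of 9 skeletal muscle markers was 12.34 to 16.15 in total-line WT, 14.26 to 15.71 in total ChREBP KO, 5.77 to 11.92 in β-line WT and 5.84 to 11.51 in ChREBPβ KO. The mean of 6 liver markers ranged from 4.51 to 8.38 in total ChREBP KO and from 4.61 to 12.78 over the other groups. In such bulk tissue, fewer cells of a type and less RNA per cell cannot be told apart. All levels that follow are log2 quantile-normalized intensities of the brightest probe of a gene, given as lowest, median and highest of 8 arrays, and are comparable between groups for 1 probe but not between genes.

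With loss of both ChREBP isoforms, the 3 PAR bZIP genes rose together, as did the D-box repressor gene Nfil3 and the deubiquitinase gene Usp2, while Bhlhe40 fell. Of the 8 genes, 7 had at least 1 probe past limma's adjusted p threshold of 0.05, against 49.5% of all genes. Of these, 6 were higher and 1 lower, against 26.9% and 24.6% of all genes. By the brightest probe 6 passed, against 44.1%, of which 5 were higher and 1 lower, against 22.9% and 21.1%. Of the 17 probes, 13 were called, against 43.2%. The median log2 difference of the members was 1.06, against 0.01 over all genes, and the median absolute difference was 1.24, against 0.17. The groups did not overlap for 6 of 8 genes, which was so for 16.6% of all genes. The plot of levels by group shows these separations.

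**Figure D1:**
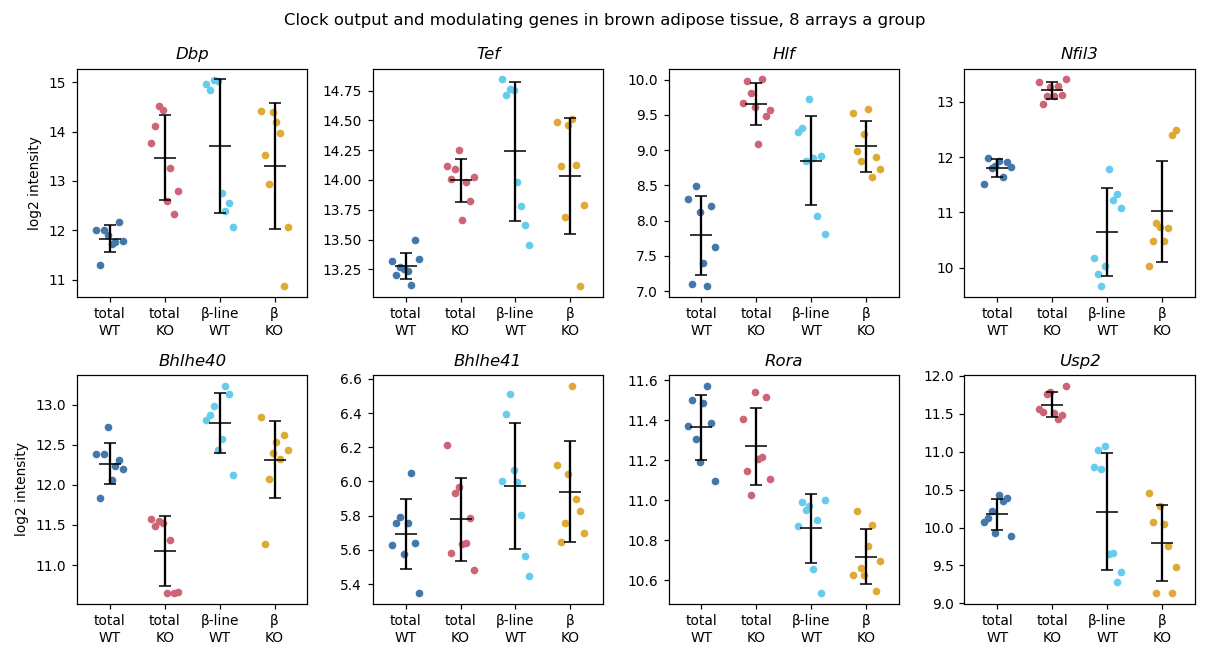
Log2 normalized intensity (y axis, own scale in each panel) of the brightest probe of 8 clock output and modulating genes in 4 groups of 8 arrays. Points are arrays and bars are mean ± SD; in total ChREBP KO, Dbp, Tef, Hlf, Nfil3 and Usp2 lie above and Bhlhe40 below every array of total-line WT, while ChREBPβ KO overlaps its WT group for all 8 genes.

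Dbp, the D-box activator with the steepest daily rhythm of the family, was at 11.29, 11.85 and 12.18 in total-line WT and at 12.33, 13.51 and 14.52 in total ChREBP KO. The lowest KO array lay just above the highest WT array, and the KO arrays were spread far more widely (SD 0.85 against 0.27, n = 8 each). The log2 difference was 1.64 ± 0.49 (SE, limma adjusted p 0.00664), a 3.11-fold rise, and only 1.12% of genes had a larger absolute difference. A second Dbp probe gave 1.57 ± 0.48. Within the 4 wash batches given by the labels, each of which held arrays of all 4 groups, the difference was 0.92 to 2.40. When slide entered as a fixed block, the difference was 1.30 ± 0.58 and no longer called (limma adjusted p 0.0959).

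Tef, the PAR bZIP factor with the more even expression, was at 13.12, 13.26 and 13.50 in total-line WT and at 13.67, 14.02 and 14.25 in total ChREBP KO. The groups were narrow and separate. The difference was 0.72 ± 0.19 (limma adjusted p 0.00231), or 1.64-fold, and all 4 Tef probes were called, at 0.68 to 1.00. When slide entered as a fixed block, the brightest probe was at 0.47 ± 0.25 (limma adjusted p 0.171).

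Hlf, the third PAR bZIP activator, was at 7.07, 7.88 and 8.50 in total-line WT and at 9.09, 9.64 and 10.01 in total ChREBP KO. It showed the largest difference of the 8 genes, 1.86 ± 0.23 (limma adjusted p 5.62e-08), which is 3.64-fold, with 0.787% of genes above it in size. Within wash batches it was 1.49 to 2.23.

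Nfil3, the repressor that competes with these factors at D-boxes, was at 11.51, 11.83 and 11.98 in total-line WT and at 12.96, 13.19 and 13.41 in total ChREBP KO. Here both groups were tight (SD 0.16 and 0.15) and lay almost a log2 unit apart at their nearest arrays. The difference was 1.40 ± 0.29 (limma adjusted p 0.000197), or 2.63-fold, and 1.39 for its other probe. The repressor of D-box genes and their activators were thus higher in the same KO arrays.

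Usp2, the deubiquitinase, was at 9.89, 10.17 and 10.43 in total-line WT and at 11.43, 11.55 and 11.87 in total ChREBP KO. Its groups were also narrow (SD 0.21 in WT and 0.17 in KO) and separate. The difference was 1.45 ± 0.23 (limma adjusted p 4.12e-06), or 2.72-fold, and 1.40 for its other probe.

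Bhlhe40, the E-box repressor DEC1, moved the other way. It was at 11.83, 12.27 and 12.72 in total-line WT and at 10.65, 11.41 and 11.57 in total ChREBP KO, where 3 arrays sat at 10.65 to 10.66 and the other 5 at 11.32 to 11.57. The difference was -1.09 ± 0.19 (limma adjusted p 1.78e-05), or 2.13-fold lower, and -1.36 to -1.03 within wash batches. For Bhlhe41, the close relative DEC2, which was dim, the probes disagreed: the brightest was at 0.09 ± 0.14 (limma adjusted p 0.646, 95% interval -0.19 to 0.36) and the other at 0.47 ± 0.14 (limma adjusted p 0.00806). Rora, the activator at ROR elements, was at 11.10, 11.38 and 11.57 in WT and at 11.03, 11.21 and 11.54 in KO. Those ranges overlapped almost fully, the difference was -0.10 ± 0.08 (limma adjusted p 0.375, 95% interval -0.26 to 0.07), and none of its 3 probes was called.

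Values that moved with this comparison included the brown adipose markers. Their mean was 12.78 to 13.35 in WT and 13.50 to 13.74 in KO, without overlap. Of the 7 markers, 3 were called higher, against 22.9% of all genes: Dio2 (2.19), Ppargc1a (1.18) and Ebf2 (0.65). Lhx8 (0.41), Cidea (0.04), Ucp1 (-0.09) and Zic1 (-0.20) were not called. Of 4 lymphocyte and 4 white adipose markers, 1 each was called higher, and of 3 blood markers none was. None of 9 muscle markers and none of 6 liver markers was called (limma), with 0 of each at an unadjusted p under 0.05. The part of the brown adipose markers in the clock gene values was not tested. When the mean levels of the liver and muscle markers entered the fit, the same 7 genes were called, and 12354 of 24523 genes.

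The loss of the β isoform alone gave no call among the 8 genes. Of the 8 genes, 0 had a probe past limma's adjusted p threshold, against 3.21% of all genes, or 2.7% by the brightest probe and 2.55% of all probes, and 1 gene, Bhlhe40, had an unadjusted p under 0.05. For this and later counts by unadjusted p, the share of all genes is not given. The median log2 difference of the 8 genes was -0.17, against 0.00 over all genes, and the median absolute difference was 0.29, against 0.07. The groups overlapped for all 8 genes, and were free of overlap for 0.432% of all genes. The plot of probe differences sets these values beside those of the other comparisons.

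**Figure D2:**
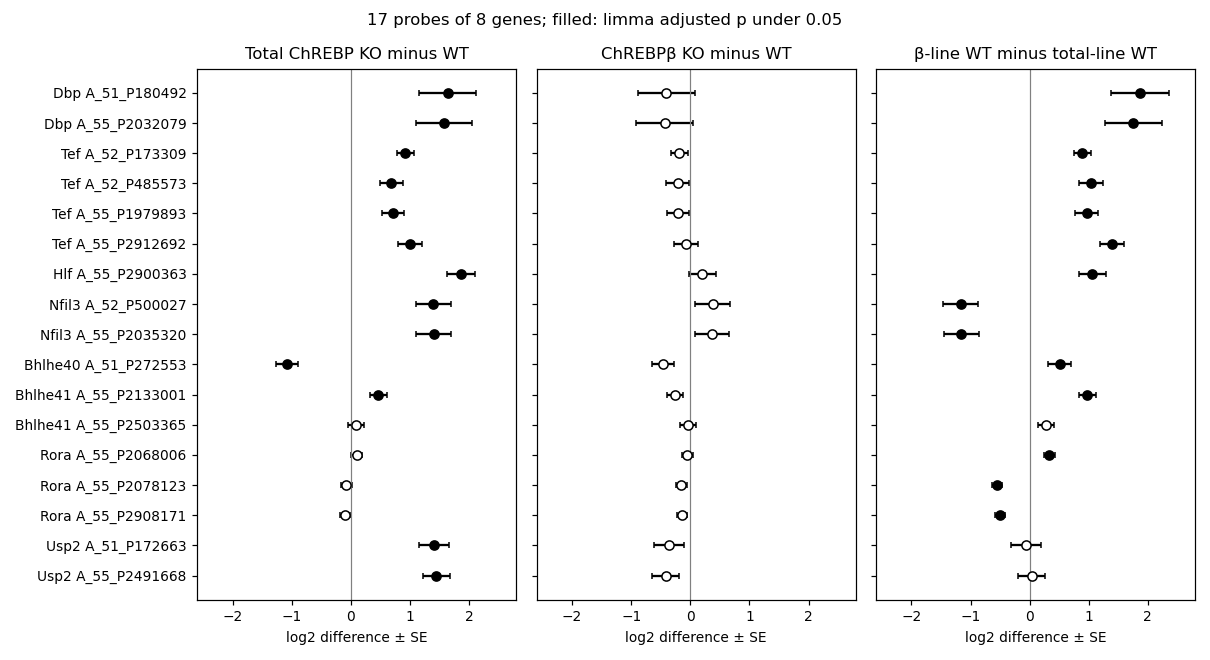
Log2 difference ± SE (x axis) of 17 probes of the 8 genes in total ChREBP KO against its WT, ChREBPβ KO against its WT and β-line WT against total-line WT, with filled symbols for a limma adjusted p under 0.05. Filled symbols number 13 in the first panel, 0 in the second and 14 in the third, and the Dbp bars are the widest.

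Bhlhe40 was at 12.12, 12.84 and 13.24 in β-line WT and at 11.27, 12.42 and 12.85 in ChREBPβ KO. The groups overlapped in part, with the KO arrays reaching lower. The difference was -0.46 ± 0.19 (limma adjusted p 0.238). Its sign was the same in all 4 wash batches, at -1.07 to -0.25, and with wash batch as a block it was -0.59 ± 0.16 and called (limma adjusted p 0.0469). With slide as the block it was -0.66 ± 0.22 and not called (limma adjusted p 0.283), and no other setting gave a call.

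Dbp was at 12.08, 13.80 and 15.03 in β-line WT and at 10.87, 13.75 and 14.41 in ChREBPβ KO, so each group alone spanned more than the whole rise seen with loss of both isoforms. The difference was -0.41 ± 0.49 (limma adjusted p 0.815, 95% interval -1.40 to 0.59) and ran from -1.77 to 1.56 within wash batches. For Usp2 the difference was -0.41 ± 0.23 (limma adjusted p 0.45), for Nfil3 0.37 ± 0.29 (0.666), for Tef -0.20 ± 0.19 (0.731) and for Hlf 0.20 ± 0.23 (0.8). Rora at -0.14 ± 0.08 and Bhlhe41 at -0.03 ± 0.14 were the nearest to 0. The 95% intervals reached up to 0.96 for Nfil3, 0.67 for Hlf, 0.18 for Tef and 0.05 for Usp2. In total ChREBP KO the intervals of the same genes began at 0.81, 1.40, 0.33 and 0.98, in that order. Among these genes, only the intervals of Nfil3 thus overlapped.

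The KO effects were compared directly by limma as the ChREBPβ KO effect minus the total ChREBP KO effect. Of the 8 genes, 5 had a called probe, all with a negative difference, against 29.4% of all genes called in either direction and 15.5% with a negative difference. By the brightest probe, for which 25.2% of all genes were called, this was so for Dbp at -2.04 ± 0.69 (limma adjusted p 0.0285), Hlf at -1.66 ± 0.32 (0.000255), Tef at -0.92 ± 0.27 (0.0105) and Usp2 at -1.86 ± 0.32 (5.33e-05). The fifth gene was Bhlhe41 by its dimmer probe only, at -0.73 ± 0.20 (0.00765). Nfil3, at -1.03 ± 0.41, was not called (limma adjusted p 0.0668) but was with wash batch as a block (0.0302) and not with slide as a block (-0.88 ± 0.44, limma adjusted p 0.173). Bhlhe40, which was lower in each KO group, differed by 0.63 ± 0.27 without a call (0.0858), and Rora by -0.05 ± 0.12 (0.828). With slide as a block, the brightest Tef probe was at -0.87 ± 0.32 and no longer called (limma adjusted p 0.0588).

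The WT groups of the lines, which carry no deletion, differed from each other in most of the 8 genes. Of the 8 genes, 7 had a called probe in β-line WT against total-line WT, which compares with 46% of all genes, with 6 higher and 2 lower, against 29.3% and 18.1%, Rora being counted in both. By the brightest probe 6 were called, against 38.9%, of which 4 were higher and 2 lower, against 24.8% and 14.1%, and of the 17 probes 14 were called, against 39.2%. Dbp was higher in β-line WT by 1.87 ± 0.49 (limma adjusted p 0.00268), Hlf by 1.06 ± 0.23 (0.000428) and Tef by 0.96 ± 0.19 (0.000133). Nfil3 was lower by 1.15 (limma log2 difference -1.15 ± 0.29, adjusted p 0.00193), so the activators and the repressor at D-boxes lay in opposite directions here, whereas all 4 were higher in total ChREBP KO against the same total-line WT arrays. Bhlhe40 was higher by 0.50 ± 0.19 (0.0328). Usp2, at 0.04 ± 0.23 (0.917, 95% interval -0.43 to 0.50), was the gene with no call. Rora was lower by its brightest probe, with no overlap of the groups (-0.51 ± 0.08, limma adjusted p 1.21e-05), and by a second probe (-0.55), but higher by its dimmest probe (0.33). For Bhlhe41 the dimmer probe gave 0.97 ± 0.14 (2.25e-06) and the brightest 0.28 ± 0.14 (0.102). By the brightest probe, Rora was the 1 gene of 8 without overlap, against 9.46% of all genes.

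All 9 skeletal muscle markers were called lower in β-line WT than in total-line WT, with a median log2 difference of -6.20. Other markers differed too: 3 of 4 lymphocyte markers were higher, 2 of 3 blood markers and 3 of 7 brown adipose markers were lower, and of 4 white adipose markers 1 was higher and 2 were lower. The part of these in the clock gene values was not tested. When the mean level of the muscle markers entered the fit, 3 of the 8 genes, Bhlhe41, Rora and Tef, were still called, and 4385 of 24523 genes. The Dbp difference over 17 processing settings ranged from 1.64 to 2.20, with limma adjusted p 0.000338 to 0.177. That of Hlf was 0.73 to 1.19, that of Nfil3 -1.33 to -0.86 and that of Bhlhe40 0.46 to 0.62, so the directions held where the calls were lost. Line, muscle content and any difference in the time of sampling cannot be told apart between these groups.

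The spread of Dbp in β-line WT followed the wash batches, which was not so in ChREBPβ KO. In β-line WT, Dbp was at 14.83 to 15.03 in the 4 arrays of wash batches 1 and 2 and at 12.08 to 12.77 in the 4 arrays of batches 3 and 4. Tef was at 14.72 to 14.85 in the first 2 batches and at 13.45 to 13.98 in the others, and Usp2 at 10.77 to 11.08 and at 9.28 to 9.66. Nfil3 was the reverse, at 9.67 to 10.18 and at 11.07 to 11.78. In ChREBPβ KO, Dbp was at 14.40 to 14.41 in batch 1, at 12.95 to 13.52 in batch 2, at 10.87 to 14.20 in batch 3 and at 13.97 in the 1 array of batch 4. In total ChREBP KO, the 3 arrays of batch 1 were the highest, at 14.12 to 14.52, against 12.33 to 13.77 in the other batches. The difference from WT was accordingly 2.40 in batch 1 and 0.92 to 1.27 in batches 2 to 4. In total-line WT, all 8 arrays of the 4 batches lay at 11.29 to 12.18. Whether the batch, or a feature of the mice that were washed together, accompanies these levels was not tested.

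**Figure D3:**
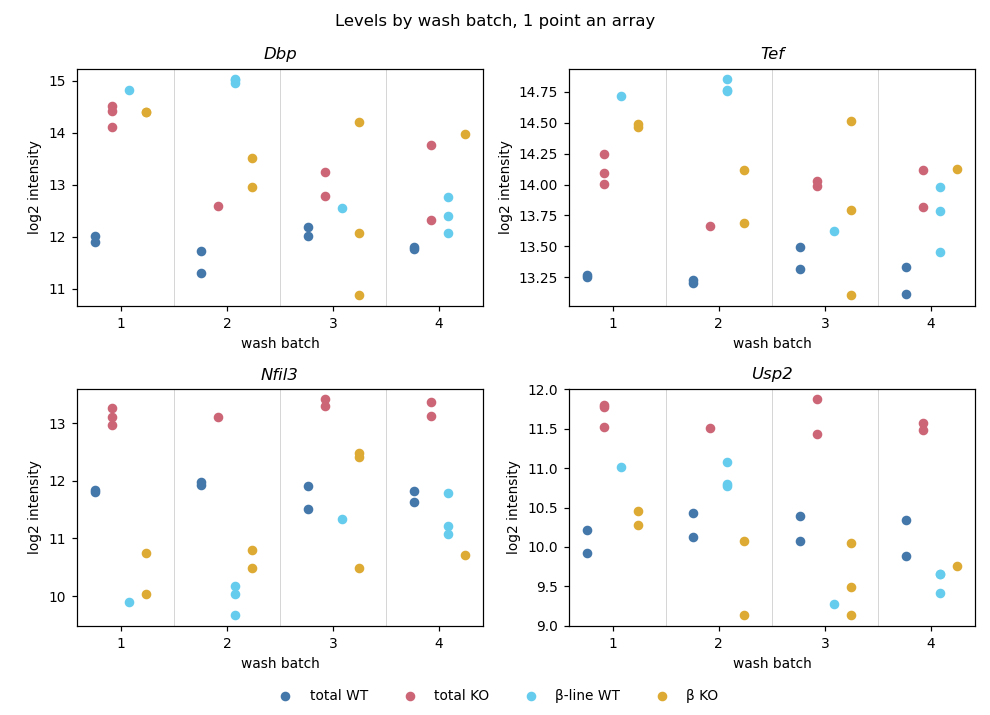
Log2 normalized intensity (y axis) of Dbp, Tef, Nfil3 and Usp2 by wash batch (x axis), 1 point per array, colored by group. In β-line WT the arrays of batches 1 and 2 are high for Dbp, Tef and Usp2 and low for Nfil3, while Dbp in total-line WT stays between 11.29 and 12.18 in every batch.

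Between arrays of the same group, Dbp was set against the other 7 genes in each of the 4 groups, 28 relations in all, with Benjamini-Hochberg adjustment over them and exact two-sided permutation tests over 40320 pairings. Of these, 10 passed by Pearson's r, 6 of them outside β-line WT, for which no r is given because its Dbp levels form separate sets. Tef followed Dbp in ChREBPβ KO (n = 8, r 0.957, exact adjusted p 0.0111, rho 0.905, exact adjusted p 0.0426, r 0.955 without the 2 arrays farthest from the median Dbp) and in total ChREBP KO (n = 8, r 0.794, exact adjusted p 0.0339, rho 0.762, exact adjusted p 0.103, r 0.776 without 2). Usp2 followed it in ChREBPβ KO (r 0.835, exact adjusted p 0.0286, rho 0.857, exact adjusted p 0.0718, r 0.872 without 2). Nfil3 ran against Dbp in ChREBPβ KO (r -0.900, exact adjusted p 0.0286, rho -0.810, exact adjusted p 0.0871), but r was -0.482 without the 2 farthest arrays, so that relation rests on them. In total ChREBP KO, where Nfil3 barely varied, its r with Dbp was -0.160 (exact adjusted p 0.815).

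Bhlhe40 went with Dbp in total ChREBP KO (r 0.924, exact adjusted p 0.0204, rho 0.833, exact adjusted p 0.0718, r 0.903 without 2), although it was lower and Dbp higher there than in WT. The arrays with Bhlhe40 at 10.65 to 10.66 had Dbp at 12.33 to 12.79. The others, with Bhlhe40 at 11.32 to 11.57, had Dbp at 13.25 to 14.52. This r thus rests largely on 2 sets of arrays, which leaving out 2 arrays did not remove. In ChREBPβ KO the r was -0.032 (exact adjusted p 0.933). Hlf followed Dbp in total-line WT (r 0.811, exact adjusted p 0.0286, rho 0.833, exact adjusted p 0.0718, r 0.932 without 2). There Hlf was at 8.13 to 8.50 in wash batches 1 and 3 and at 7.07 to 7.63 in batches 2 and 4. Dbp was split likewise, at 11.90 to 12.18 and at 11.29 to 11.79. After subtraction of wash batch means, 4 relations passed in all. Outside β-line WT, Tef and Nfil3 in ChREBPβ KO kept their calls and Tef in total-line WT gained one, while Usp2 in ChREBPβ KO, Tef and Bhlhe40 in total ChREBP KO and Hlf in total-line WT lost theirs.

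Over all 32 arrays, as deviations from the group means, the genes most like Dbp among 15363 with an ordinary symbol were Per3, a period gene (r 0.93), Ttc30b (0.91), Cntrob (0.89), Nr1d2, which encodes REV-ERBβ (0.88), and Osbpl5 (0.88). Among the most opposed were Arntl, which encodes BMAL1 (-0.92), Sh3pxd2a (-0.91), Fam168b (-0.88) and Leo1 (-0.87). These correlations are a description without a test, and the arrays share wash batches and depots. Of the genes named here, Per3, Nr1d2 and Arntl belong to the core clock.

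**Figure D4:**
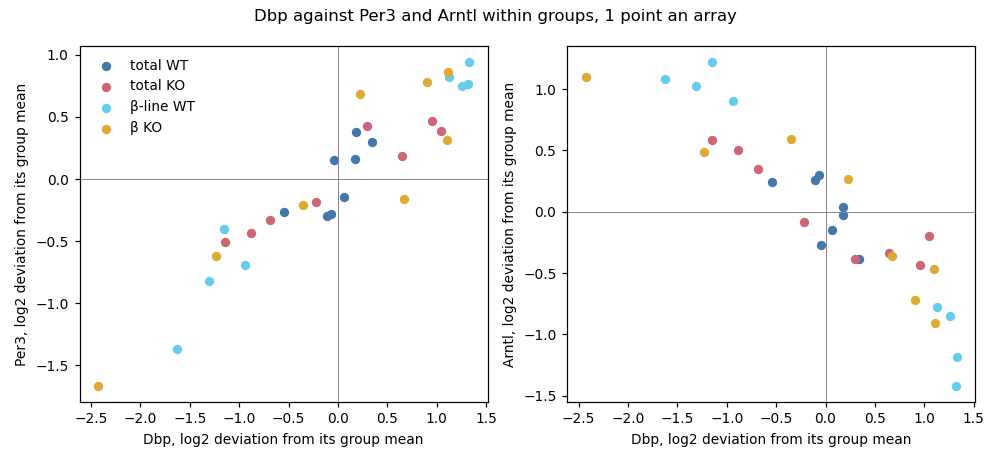
Deviation of Per3 (left) and Arntl (right) from the group mean against that of Dbp (x axis), all on the log2 scale, 1 point per array for 32 arrays colored by group. Per3 rises with Dbp (r 0.93) and Arntl falls (r -0.92), with arrays of the β line at the ends of the range.

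A list of 12 core clock genes was then set beside the 8 members. In total ChREBP KO, 7 rose and 2 fell by limma, against 22.9% and 21.1% of all genes by the brightest probe, with a median log2 difference of 0.56. Those that rose were the period genes Per2 (1.54 ± 0.20) and Per3 (2.82-fold), the transcriptional repressor gene Ciart (1.03), the BMAL1 relative Arntl2 (0.82), the REV-ERB genes Nr1d2 (0.73) and Nr1d1 (0.68) and the cryptochrome Cry2 (0.45). The cryptochrome gene Cry1 fell by 0.51 and Clock by 0.30. Arntl at -0.12 ± 0.34 and Per1 at 0.24 ± 0.22 were not called. In ChREBPβ KO, 0 of 12 were called by limma, against 2.7% of all genes, with 0 at an unadjusted p under 0.05 and a median of 0.06. The direct comparison of the KO effects called 6 of 12, against 25.2% of all genes: Per2 (-1.75), Per3 (-1.71), Ciart (-1.36), Nr1d2 (-0.79) and Arntl2 (-0.64) with a negative difference and Cry1 (0.67) with a positive one.

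**Figure D5:**
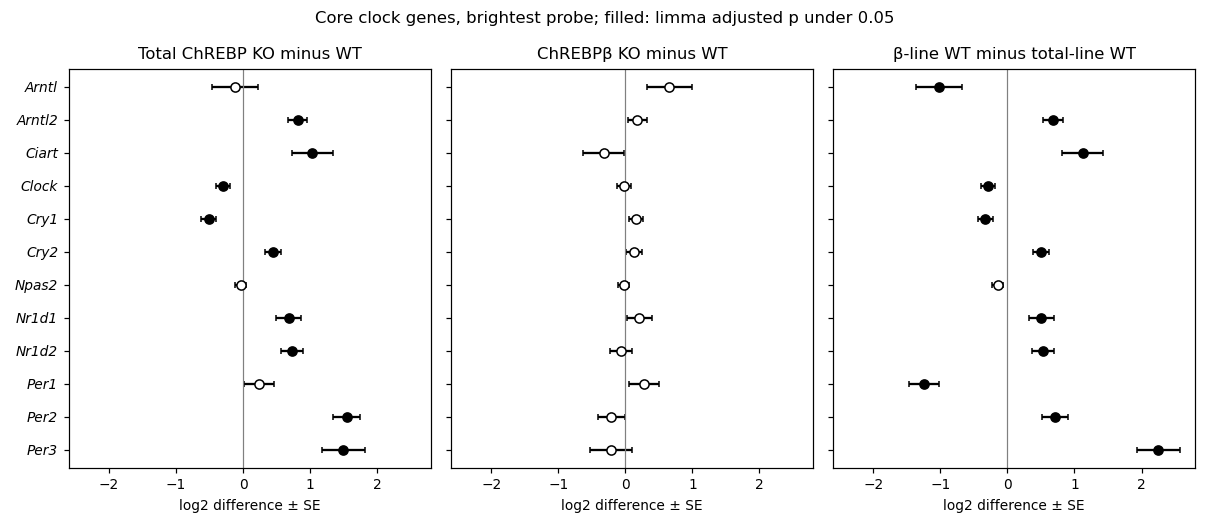
Log2 difference ± SE (x axis) of the brightest probe of 12 core clock genes in the same 3 comparisons, with filled symbols for a limma adjusted p under 0.05. In total ChREBP KO, 9 genes are filled, from Cry1 at -0.51 to Per2 at 1.54, and in ChREBPβ KO none is.

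Between the WT groups, 7 of the 12 core clock genes were higher in β-line WT and 4 lower, against 24.8% and 14.1% of all genes. The widest differences were Per3 at 2.25 ± 0.32, Per1 at -1.25 ± 0.22, Ciart at 1.12 ± 0.30 and Arntl at -1.02 ± 0.34. Per1 and Arntl, which were called here, were among those not called with loss of ChREBP. When the mean level of the muscle markers entered the fit, 2 of the 12 were called. In that fit 4385 of 24523 genes were called by any probe.

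Downstream of the members, 6 genes are known to need the PAR bZIP factors in liver, of which 5 were measured: Alas1, the first enzyme of heme synthesis, Por, which feeds electrons to cytochromes P450, Nr1i3, the xenobiotic receptor CAR, and the drug-metabolizing Cyp2b9 and Cyp2b10. In total ChREBP KO, 3 of 5 were higher, against 22.9% of all genes, Alas1 by 0.92 ± 0.14 (limma adjusted p 1.91e-06), Cyp2b10 by 3.87 ± 0.43 (7.81e-09) and Cyp2b9 by 3.71 ± 0.41 (6.54e-09). Cyp2b9 and Cyp2b10 belong to the same gene family, and whether their probes tell them apart was not tested, so they may be the same signal. Por was at 0.05 ± 0.09 and Nr1i3 at -0.20 ± 0.13. In ChREBPβ KO none of the 5 was called by limma, against 2.7% of all genes, with 2 at an unadjusted p under 0.05, Cyp2b10 at 1.29 ± 0.43 and Cyp2b9 at 1.26 ± 0.41. The 3 called genes also differed between the KO effects, Alas1 at -0.85, Cyp2b10 at -2.57 and Cyp2b9 at -2.45. Between the WT groups, 2 of 5 were called, both higher in β-line WT, against 24.8% of all genes. These were Alas1 by 0.72 ± 0.14 (limma adjusted p 0.000118) and Por by 0.36 ± 0.09 (0.00105).

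Of 8 further clock-controlled genes, 4 rose and 2 fell in total ChREBP KO, against 22.9% and 21.1% of all genes. The transcription factor gene Klf9 rose by 0.86 ± 0.08, Tns2 by 0.84, Tsc22d3 by 0.54 and Wee1, a cell cycle kinase under E-box control, by 0.47. Tspan4 fell by 0.66 and Fmo2 by 0.31. In ChREBPβ KO none was called by limma, against 2.7% of all genes by the brightest probe. An unadjusted p under 0.05 was found for 5, with no share of all genes to set it against. Wee1 at -0.62 ± 0.18 (limma adjusted p 0.0518) and Klf9 at 0.26 ± 0.08 (0.0741) were the nearest to a call. Their difference between the KO effects was -1.10 ± 0.25 for Wee1 (0.00142) and -0.59 ± 0.11 for Klf9 (0.000214).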

How the data were processed

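The authors hybridized Cy3-labeled RNA to Agilent SurePrint G3 Mouse GE v2 arrays and deposited the scanner output of Feature Extraction 10.10.1.1 with a table of log2 normalized values, for which the processing notes also name limma. The deposited intensity of each spot is the median pixel intensity, not normalized. Here it was log2-transformed and quantile-normalized, spots were kept that were found and clearly exceeded background on 26 or more of the 32 arrays or on 6 of 1 group, and spots of a probe were summarized by the median. The result lay within 0.00298 (mean absolute log2 difference) of the deposited log2 table. Probes of all genes were fitted with 4 group means in limma 3.58.1 (R 4.3.3), and p-values were adjusted by Benjamini-Hochberg over 37306 probes. A gene is led by its brightest probe and counts as called when any probe is. Wash batch, slide (15 slides), replicate number, signal, filter and covariates were varied. Correlations used SciPy 1.17.1. The fit was tested on simulated data. Gene names and probe positions (mm9) are those of the array design. Members and gene lists were chosen with earlier results of these data known. Named genes were all members, those lists and the 5 genes most like and most opposed to Dbp and Bhlhe40, of which some are not reported here. Quantile normalization assumes similar overall distributions, and the number of arrays limits the precision.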

Additional observations from a re-analysis of the deposited data

Results flagged for a closer look

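In limma's direct comparison, the ChREBPβ KO effect minus the total ChREBP KO effect passed the threshold for 4 genes by the brightest probe: Dbp at -2.04, Hlf at -1.66, Tef at -0.92 and Usp2 at -1.86 on the log2 scale. The WT groups from which these effects were read also differed for Dbp, Hlf and Tef, and the part of this was not tested. Among the 32 sets of 8 arrays (8 genes in 4 groups), no array stood far enough from its group to pass Dixon's criterion, which chance passes in about 1 in 20 sets.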

How the results depend on the processing

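Over all settings tried, the called genes among the 8 numbered 5 to 7 in total ChREBP KO and 4 to 6 in the difference between the KO effects. With wash batch as a fixed block, 1 of the 8 genes was called in ChREBPβ KO, Bhlhe40. Between the WT groups, 3 were called with the muscle list as a covariate and 3 with the liver and muscle lists. The liver covariate was chosen after seeing the data. After removal of wash batch means, 4 relations with Dbp passed. Leaving aside values within single wash batches, signs of the brightest probes turned in 3 cases, none of them a call. Bhlhe41 in total ChREBP KO was at -0.13 with slide as a fixed block and Hlf in ChREBPβ KO at -0.011 with wash batch as a block. Usp2 between the WT groups was at -0.055 with the muscle covariate. Within single wash batches, signs also varied, but only for differences that the brightest probe did not call. In ChREBPβ KO only Bhlhe40 kept its sign in all 4 batches, and Dbp ran from -1.77 to 1.56. Between the WT groups Usp2 ran from -0.95 to 0.95. Over all genes, the 788 called in ChREBPβ KO became 130 when slide entered as a block and 400 when only its own groups were fitted, and the 11288 between the WT groups became 4385 with the muscle covariate and 4550 with both. The cause was not tested. With the replicate number as a block, 7, 0, 6 and 7 of the 8 genes were called in total ChREBP KO, ChREBPβ KO, their difference and the WT groups, and Nfil3 was the call added in the difference between the KO effects. Arrays of the same number correlated at -0.30 to 0.08 in the total line and at -0.20 to 0.53 in the β line, and 0 of 8 and 1 of 8 were closest to their own number, so the numbers were not taken as pairs.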

Other observations

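Genes that respond to glucocorticoids, hormones with a daily rhythm of their own, were looked at as 7 genes, of which Klf9 and Tsc22d3 are also in the clock-controlled list and Per1 in the core clock list. In total ChREBP KO, 4 of 7 were called by limma, near the 44.1% of all genes called by the brightest probe. All 4 were higher, against 22.9% of all genes. They were Klf9 (0.86), Zbtb16, a zinc finger repressor gene (0.87 ± 0.34), Tsc22d3 (0.54) and the receptor co-chaperone gene Fkbp5 (0.36 ± 0.11). In ChREBPβ KO none was called by limma, against 2.7% of all genes, and 2 had an unadjusted p under 0.05. Between the WT groups, 6 of 7 were called, against 38.9% of all genes. All 6 were lower in β-line WT, against 14.1% of all genes. Errfi1, an inhibitor of the EGF receptor, was at -2.38 ± 0.28, Zbtb16 at -1.22 ± 0.34 and the kinase gene Sgk1 at -1.03 ± 0.16. Klf9 was at -0.03 ± 0.08.

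The genes most like Bhlhe40 over 32 arrays, as deviations from group means, were Vegfa, the angiogenic factor gene (r 0.74), Sergef (0.73), Mrps10 (0.71), Optn (0.71) and Kdm8 (0.70), and the most opposed were Olfr430 (-0.77), Chtf8 (-0.72), Gpr160 (-0.71), Pawr (-0.71) and Tex29 (-0.68). No core clock gene was among these 10. These values carry no test.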
